A study of Mus musculus with 38 samples.

Results

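Lung RNA of male MutaTMMouse animals given the middle dose of dibenz(ah)anthracene was compared with lung RNA of animals given the vehicle alone. The members were chosen by the dose group and tissue in the sample titles and comprised 9 of the 38 arrays of the series, 4 of dose group D2 and 5 of dose group D0. All animals were about 10 weeks of age, carried the same transgenic background and were housed singly. D2 mice received 12.5 mg/kg-bw/day of dibenz(ah)anthracene in olive oil by oral gavage on 28 consecutive days, and D0 mice received olive oil by the same route over the same days. Lungs were taken 72 hours after the final dose. RNA came from random sections of each lung and 1 array was hybridised per mouse. Lungs of D1 (6.25 mg/kg-bw/day, 5 mice) and D3 (25 mg/kg-bw/day, 5 mice), and the forestomachs of the same D0 and D2 mice, entered only where named.

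Dibenz(ah)anthracene is a polycyclic aromatic hydrocarbon. Such compounds bind the aryl hydrocarbon receptor, which turns on cytochromes P450 of the CYP1 family, and these enzymes convert them to epoxides that attach to DNA. Damaged DNA stabilises the transcription factor p53, whose targets halt the cell cycle, repair DNA or start cell death. The adult lung divides slowly and is made up of alveolar and airway epithelium, a dense capillary endothelium, fibroblasts and resident immune cells.

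Each value below is a log2 ratio of the tissue RNA (Cy5) to a reference RNA pooled from mouse cell lines (Cy3), so that a difference of 1 between mice is a 2-fold difference and a negative level means only that the reference pool held more of that transcript. A probe was called changed when its Benjamini-Hochberg adjusted p in limma was at most 0.05 and its change was at least 1.5-fold. On the 9 arrays, 41.5 to 61.7% of probes were well above background and no spot was saturated. Arrays of a group correlated at 0.927 to 0.957 in D0 and 0.922 to 0.953 in D2. Lung was recognised by its markers, as 11 of 11 genes of type 2 alveolar cells were above background on all 9 arrays, with a mean log2 ratio of 4.60 to 4.71 in D0 and 4.18 to 4.84 in D2. D2 mouse 11 stood apart by transcripts of heart muscle, the mean of the 9 listed genes lying 2.20 above the D0 mean in that mouse, whereas the D0 mice ranged from -0.77 to 0.72. Dose group and place on the slide were tied together, because 4 of the 5 D0 arrays lay in column 1 and all 4 D2 arrays in column 3. D0 mouse 1 alone was a control in column 3, and in 141 of the 141 probes called higher it lay below every D2 mouse. It was also among the D0 arrays from which these probes were called, so this count cannot separate dose from place on the slide.

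At the middle dose, p53 targets and genes for DNA replication and mitosis were among the transcripts that rose. Of 55681 probes, 147 were called changed (0.264%), 141 higher (0.253%) and 6 lower (0.0108%), and these stood for 104 named genes that rose and 4 that fell. Of the 104 genes, 15 belonged to 3 lists of p53 targets and 11 to a list of replication and mitosis genes. A further 25 of the 104 are known for roles in replication or division. They were picked from the called genes after their values were seen, so no share over all genes can stand beside this count. Most changes were modest, with a median of 0.84 among the probes called higher, and 48 of the 147 probes changed by more than 2-fold and 9 by more than 4-fold. Every D2 mouse lay above every D0 mouse in 137 of the 141 higher probes, against 1.6% of all probes, and below in 6 of the 6 lower probes, against 1.07% of all probes. On each of the 3 slides that held both a D0 and a D2 array, all 147 probes moved in the same direction as in the pooled comparison. The same arrays gave the calls, so the separation of the mice and the direction on each slide describe the called probes and are no independent check. When each gene was represented by its brightest probe, 99 of 20018 genes were called higher (0.495%) and 3 lower (0.015%). The median over all genes was 0.01. The gene lists below are set beside these values. These lists were chosen with earlier results of these data known, so their shares are a description and not an independent test.

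The count rested in part on single animals and on the scaling. It was 93 without D2 mouse 12, 203 without D2 mouse 11, 242 with the slide as a block, and 225 with the scanner software's own log ratios. With arrays centred on their median in place of loess, 5 probes were called, 4 higher and 1 lower. That scaling moved the median of all genes to 0.24, and the median of the replication and mitosis list from 0.60 to 0.98.

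**Figure D1:**
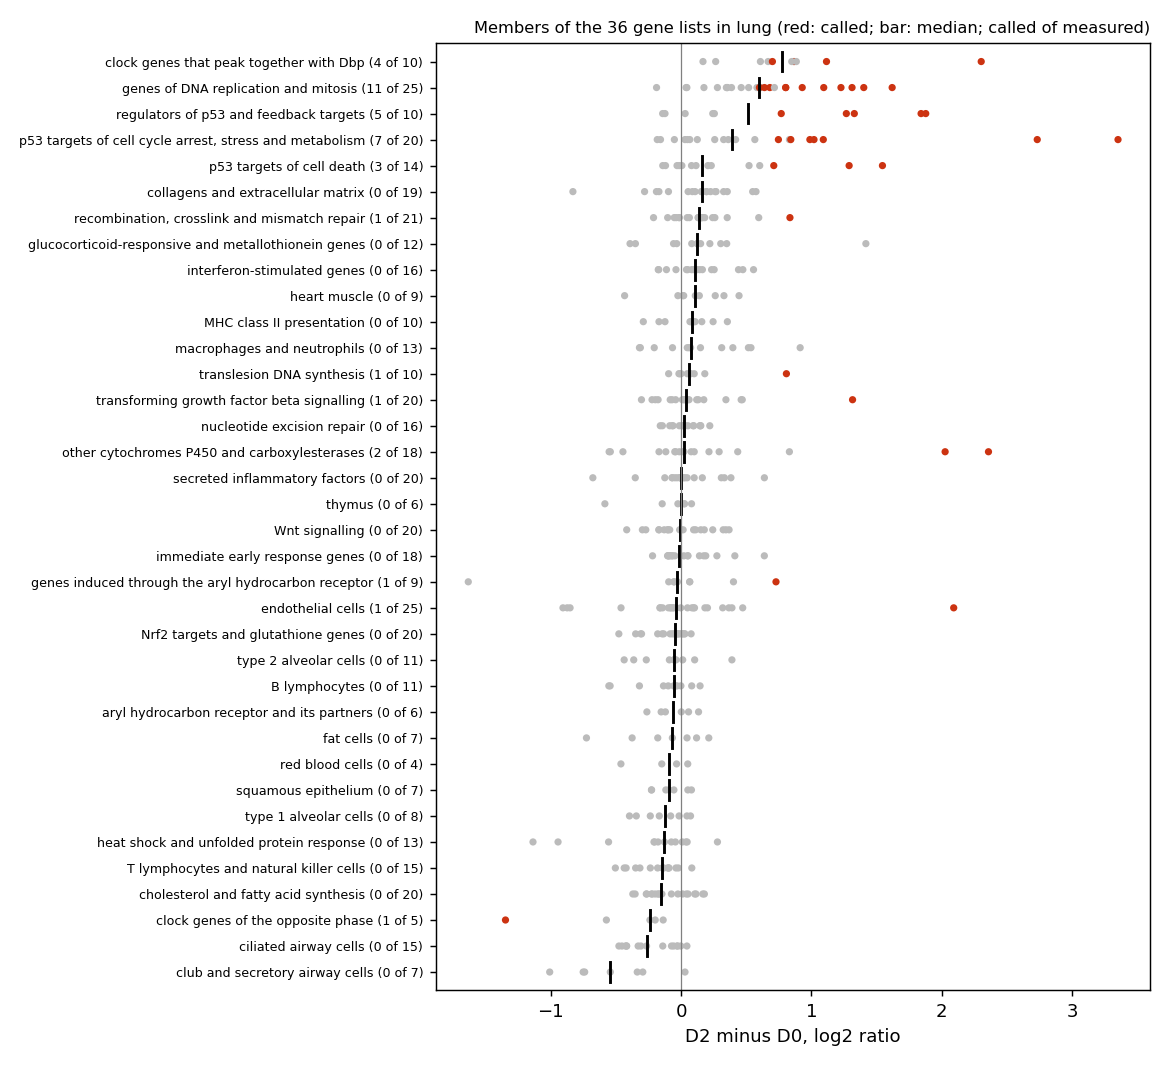
Difference between D2 and D0 lungs on the log2 scale for the members of the 36 gene lists, 1 point per gene by its brightest probe. Red points passed the test, grey points did not, and the black bar is the list's median. Members that passed cluster in the clock, replication and p53 lists, while the lists of lung epithelium, immune cells and matrix hold none.

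Gdf15 and Cdkn1a, both on the p53 lists, had the largest changes among the named genes. Dbp, Ces2e, Mmrn2, Ces2c and Celf5, described below, came next, ahead of the other p53 targets. Gdf15, a secreted stress cytokine on chromosome 8, had log2 ratios of -2.13, -2.39, -1.85, -1.66 and -1.95 in D0 mice 1 to 5 and of 1.34, 1.88, 1.46 and 0.75 in D2 mice 11, 12, 13 and 15. The groups were widely separated, and the lowest D2 mouse was still well above the highest control. The mean rose from -2.00 ± 0.28 (SD, n = 5) to 1.36 ± 0.47 (SD, n = 4), a 10.2-fold increase (log2 change 3.35, 95% interval 2.89 to 3.81, limma adjusted p = 2.848e-08).

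Cdkn1a, on chromosome 17, encodes p21, the inhibitor of cyclin-dependent kinases by which p53 stops cells before DNA replication. It read -0.73, -1.27, -0.82, -1.25 and -0.91 in the D0 mice and 1.38, 2.07, 2.00 and 1.49 in the D2 mice. All D2 mice lay on the far side of a gap wider than the spread of either group. The increase was 6.65-fold (log2 change 2.73, 2.36 to 3.11, limma adjusted p = 2.848e-08). A second Cdkn1a probe, above background in 1 of the 5 D0 arrays, rose by 2.33. The window around the first of the 2 RefSeq start sites of Cdkn1a is shown because it holds the paired core of a p53 element close to a gene that changed this much. RefSeq places it on the plus strand of GRCm38.p6 at chr17:29090899-29090978, and capitals mark both CATG cores, the match beginning 48 bases before the start.

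Cdkn1a promoter: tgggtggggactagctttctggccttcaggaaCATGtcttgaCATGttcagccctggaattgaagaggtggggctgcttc

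The pattern searched, CATGNNNNNNCATG on either strand in the 250 bases before a start, reads the same on both strands and occurred in 0.49% of 32851 RefSeq promoters. It was found in 1 of the 12 p53-list genes that rose and have a promoter entry, Cdkn1a, and in 0 of the 26 with an entry that were not called. A gene was counted when any of its starts held the pattern, whereas the percentage is over promoters. A match of letters in this window is a description and not a site of binding.

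Among regulators of p53 and its feedback targets, 5 of 10 measured genes rose, none fell, and the list's median was 0.51. Phlda3, a repressor of Akt signalling, read 0.16, 0.00, 0.19, 0.07 and 0.06 in D0 and 1.83, 2.12, 2.03 and 1.76 in D2, among the tightest separations of the comparison. It rose 3.58-fold (limma adjusted p = 2.848e-08). Ccng1, a cyclin that recruits phosphatase to Mdm2, read -0.44, -0.84, -0.88, -0.58 and -0.79 in D0 and 0.58, 1.53, 1.66 and 0.92 in D2, a 3.67-fold rise. Mdm2, the ubiquitin ligase that degrades p53, rose by 0.77, Trp53inp1 by 1.33 and Zmat3, an RNA-binding protein, by 1.27. The transcript of p53 itself was not called, with Trp53 at -0.14, nor was that of its other inhibitor Mdm4, at -0.12.

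Of 20 p53 targets in cell cycle arrest, stress and metabolism, 7 rose and none fell (median 0.39). Besides Gdf15 and Cdkn1a these were Zfp365 (1.09), Ephx1 (1.02), which encodes the microsomal epoxide hydrolase, Ckap2 (0.99), Plk2 (0.84) and Ei24 (0.75). Ckap2 was above background in 1 of the 5 D0 arrays, its groups overlapped, and it was not called without D2 mouse 12 or 13. Plk2 was not called without D2 mouse 12. Sesn2, a stress-induced sestrin, stood at 0.83 without passing (adjusted p = 0.136), and Gadd45a and Btg2 were at 0.05 and 0.12.

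Of 14 p53 targets in cell death, 3 rose and none fell (median 0.16). Bax, which permeabilises mitochondria, read -0.70, -0.50, -0.47, -0.83 and -0.62 in D0 and 0.76, 0.73, 0.59 and 0.59 in D2, with no overlap and a 2.44-fold difference (limma adjusted p = 3.357e-06). The nuclease gene Aen read between -0.73 and -0.53 in D0 and between 0.79 and 1.10 in D2, and 2 probes rose by 1.55 and 1.54. Pmaip1, encoding Noxa, rose by 0.71, a call kept under 10 of the 12 other settings but lost without D2 mouse 12 or 15 or without D0 mouse 1, 4 or 5. Bbc3, encoding Puma, had an adjusted p of 0.00197 but changed by 0.52, under 1.5-fold, while the death receptor Fas was at -0.01. Where arrays were centred on the median, 2 of the 15 p53-list calls remained, Gdf15 and Cdkn1a.

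**Figure D2:**
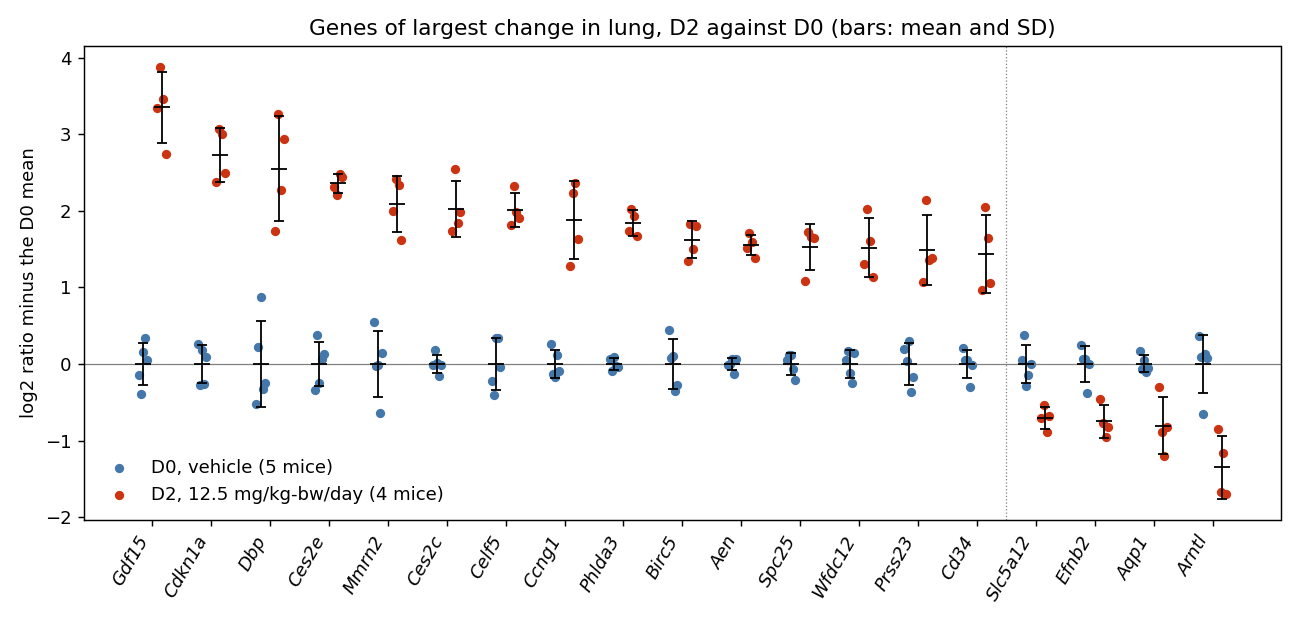
Log2 ratio of each mouse minus the D0 mean for the 15 named genes of largest rise and the 4 named genes that fell. Blue points are the 5 vehicle lungs, red points the 4 lungs at 12.5 mg/kg-bw/day, and bars give mean and SD. Gdf15 lies highest, and D2 points of the genes right of the dotted line fall below the controls.

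Genes of DNA replication and mitosis rose together. Of 25 listed genes, 11 rose and none fell, 24 had a positive difference, and the median was 0.60 against 0.01 over all genes. In 14 of the 25, every D2 mouse lay above every D0 mouse. The rise covered steps from nucleotide supply to cell separation. Rrm2, the regulated subunit of ribonucleotide reductase, read -4.04, -4.04, -4.24, -4.23 and -4.44 in D0 and -3.15, -2.40, -2.91 and -2.72 in D2, a 2.64-fold rise. The helicase subunits Mcm2 and Mcm3, which open DNA at replication origins, rose by 0.60 and 0.64. The Mcm2 call was kept under 9 of the 12 other settings and lost without D2 mouse 13 or D0 mouse 1 or 5. Mcm5 (0.52) and Mcm7 (0.39) had adjusted p-values of 0.0382 and 0.0132 but changed by less than 1.5-fold.

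Regulators of entry into mitosis followed. Ccna2, cyclin A2, read -3.62, -3.55, -3.33, -3.56 and -3.76 in D0 and -2.54, -2.13, -2.32 and -2.35 in D2. The ranges did not touch, and the rise was 2.34-fold (log2 change 1.23, limma adjusted p = 1.19e-05). Ccnb1 and its kinase Cdk1 each rose by 0.80, but their other probes were not called, at 0.07 and 0.10 for Ccnb1 and at -0.15 and -0.0014 for Cdk1. The Cdk1 call was lost without D2 mouse 12. Aurka rose by 0.68 and Cdc20, which starts the exit from mitosis, by 0.93. Mki67, the usual marker of cycling cells, read -3.52, -3.78, -3.85, -3.67 and -3.97 in D0 and -2.81, -2.19, -2.34 and -2.45 in D2. It rose 2.48-fold, and its second probe by 1.39.

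Birc5, encoding survivin of the chromosomal passenger complex, was the highest of the list. It read -3.79, -4.15, -4.13, -4.59 and -4.51 in D0 and -2.90, -2.40, -2.74 and -2.43 in D2. The rise was 3.07-fold (log2 change 1.62, 1.31 to 1.93, limma adjusted p = 4.93e-06), but 2 other Birc5 probes stood at 0.41 and 0.48 and were not called. Cenpe, a kinetochore motor, rose by 1.09. Members that were not called included Top2a (0.58), Plk1 (0.46), Foxm1 (0.28) and E2f1 (0.04), and Aurkb, at -0.19, was above background on no array.

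The 25 further division genes, chosen after their values were seen and therefore only listed, rose by 0.59 to 1.53. Spc25, of the Ndc80 kinetochore complex, was the highest, at -3.44, -3.37, -3.36, -3.55 and -3.70 in D0 and -2.40, -1.76, -1.82 and -1.83 in D2 (2.89-fold, limma adjusted p = 5.47e-06). Condensin subunits were among them (Ncaph at 1.24, Ncapd2 at 0.64), as were motors and organisers of the central spindle (Kif20a at 0.90, Kif22 at 0.85, Prc1 at 0.84, Racgap1 at 0.79). The ubiquitin-conjugating enzyme Ube2c, which serves the anaphase-promoting complex, was at 0.83, the flap nuclease Fen1 at 0.64, the epigenetic regulator Uhrf1 at 0.96 and the atypical repressor E2f7 at 0.77. Outside these 25 genes and the list above, cyclin D1 (Ccnd1), which carries growth signals to the cell cycle, rose by 0.96. In whole-lung RNA, more dividing cells and more transcript per dividing cell cannot be told apart.

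The animals differed in how far this list rose. Its mean difference from the D0 mean was 0.32 in D2 mouse 11 and 0.75, 0.71 and 0.75 in mice 12, 13 and 15, with the D0 mice between -0.16 and 0.18. Mouse 11 was the lowest D2 mouse in 22 of the 25 genes, whereas its means for the 3 p53 lists (0.69, 0.58 and 0.39) lay within or close to those of the other D2 mice (0.63 to 0.87, 0.65 to 0.79 and 0.26 to 0.48). Mouse 11 was also the D2 mouse with the most heart muscle transcript, and the part this plays in its values was not tested. Such transcripts were not confined to it. Myh6 read 5.84 in mouse 11, 3.32 in D2 mouse 13 and 2.84 to 4.13 in D0 mice 2 to 5, but 0.40 in D0 mouse 1 and 0.48 and 0.05 in D2 mice 12 and 15. Without mouse 11, 15 of the 25 genes were called, without mouse 12, 10, and with the scanner software's log ratios 17. Under median centring 0 were.

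**Figure D3:**
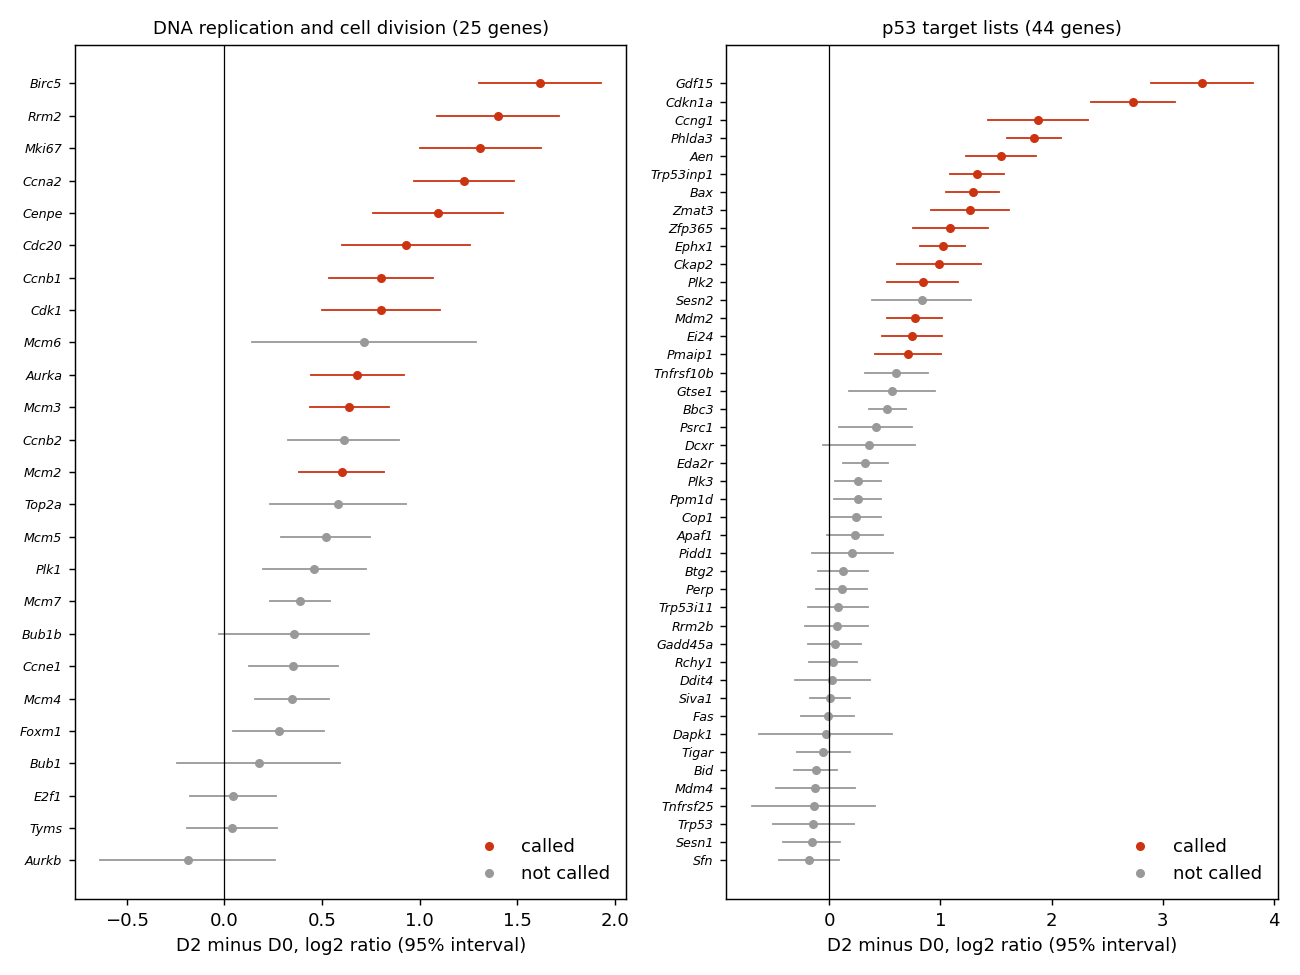
Difference between D2 and D0 lungs with its 95% interval from limma for 25 replication and division genes (left) and 44 genes of the p53 lists (right). Red genes passed the test and grey genes did not. On the left 24 of 25 differences are above 0, whereas on the right a few large values stand over many near 0.

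Promoters of 3 of these genes are shown because each holds a pair of CCAAT boxes, an element common at genes of mitosis. Capitals mark CCAAT on the strand of the gene. Cdc20 lies at chr4:118437344-118437443 on the minus strand (matches beginning 53 and 8 bases before the start), Ccnb1 at chr13:100786487-100786586 on the minus strand (99 and 67), and Mcm3 at chr1:20820313-20820412 on the minus strand (72 and 32), all in RefSeq's GRCm38.p6.

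Cdc20: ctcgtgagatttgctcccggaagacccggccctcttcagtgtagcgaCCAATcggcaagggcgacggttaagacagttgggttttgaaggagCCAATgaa
Ccnb1: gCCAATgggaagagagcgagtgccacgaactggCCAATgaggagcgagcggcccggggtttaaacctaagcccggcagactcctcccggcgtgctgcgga
Mcm3: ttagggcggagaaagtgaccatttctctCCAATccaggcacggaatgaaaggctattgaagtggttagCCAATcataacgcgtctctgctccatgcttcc

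On either strand of the 250 bases before the start, CCAAT occurred in 33.8% of the 32851 promoters, in 9 of the 10 called list genes with an entry and in 8 of the 11 uncalled ones with an entry. Another pattern searched, TTTGAA, occurred in 16.0% of promoters, in 4 of the 10 called genes, Cdc20, Cdk1, Mcm2 and Mki67, and in 2 of the 11 uncalled ones. The percentages are over promoters, whereas a listed gene was counted when any of its starts held the pattern, so the shares differ in measure. The presence of CCAAT was frequent among listed genes whether or not they were called.

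Enzymes that handle the compound gave a mixed picture. Cyp1a1, the main target of the aryl hydrocarbon receptor, read 1.93, 3.77, 3.29, 2.86 and 2.45 in D0 and 1.66, 1.41, 0.87 and 0.98 in D2. Each D2 mouse lay below each control, but the controls were widely spread and the difference of -1.63 (95% interval -2.68 to -0.58) did not pass in limma (adjusted p = 0.27). It was called only with the slide as a block (-1.93, adjusted p = 0.0467). Its relative Cyp1b1 rose by 0.73, with values of -2.12 to -1.26 in D0 and -1.30 to -0.67 in D2 that overlapped (limma adjusted p = 0.0365), and the call was kept under 7 of the 12 other settings and in 3 of 9 fits without a single mouse, those without D2 mouse 12, D0 mouse 4 or D0 mouse 5. Of 9 receptor-induced genes it was the only one called, with Cyp1a2 at -0.05, Nqo1 at -0.03, Tiparp at 0.07 and the receptor's repressor Ahrr at 0.40. None of 6 genes for the receptor and its partners, and none of 20 Nrf2 targets and glutathione enzymes, was called (medians -0.06 and -0.05), and Gstp1 came closest at -0.31 (adjusted p = 0.144).

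Among 18 other cytochromes P450 and carboxylesterases, 2 esterases rose strongly while the list's median was 0.02. Ces2e read 0.52, 1.24, 0.62, 0.93 and 0.99 in D0 and 3.17, 3.07, 3.34 and 3.30 in D2, a 5.13-fold rise with little spread (limma adjusted p = 8.13e-08). Ces2c read 0.51, 0.71, 0.54, 0.37 and 0.52 in D0 and 2.26, 3.08, 2.37 and 2.51 in D2, a 4.07-fold rise. Both encode carboxylesterases that cleave ester drugs and lipids and are close relatives, so their probes may share transcripts, and 2 other Ces2c probes stood at 0.78 and 0.08 and another Ces2e probe at 0.34 (adjusted p = 0.456), all without a call. Ces2b, a neighbour of the family, was at 0.83 (adjusted p = 0.216), and Ces2a at 0.02.

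Of the DNA repair lists, few members were called. None of 16 nucleotide excision repair genes passed (median 0.03), although this is the pathway that removes bulky adducts. In translesion synthesis, 1 of 10 genes rose, Polk (0.81, limma adjusted p = 0.00485), whose polymerase copies past bulky lesions. Its other probe stood at 0.39 (adjusted p = 0.306), and Pcna was at 0.10. Of 21 recombination, crosslink and mismatch repair genes, Mgmt alone rose (0.84, limma adjusted p = 0.0399), with the list's median at 0.14. Mgmt encodes the methyltransferase that repairs alkylated guanine, and its call was kept under 5 of the 12 other settings and in 2 of 9 fits without a single mouse, those without D0 mouse 2 or D0 mouse 3.

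Several clock genes changed. Of 10 genes that peak together with Dbp, all 10 differences were positive, 4 rose and the median was 0.77. Dbp, an output transcription factor of the clock, read -1.62, -0.88, -0.24, -1.44 and -1.35 in D0 and 0.62, 2.16, 1.17 and 1.83 in D2. The groups did not overlap but each was widely spread, and the rise was 5.86-fold (log2 change 2.55, 1.77 to 3.33, limma adjusted p = 0.00142). Nr1d2 (1.12), Tef (0.87) and Per3 (0.70) rose as well, and Per1, Per2, Hlf and Nr1d1, between 0.61 and 0.88, did not pass. Of 5 genes of the opposite phase, all differences were negative (median -0.24) and Arntl, which encodes the activator BMAL1, fell. Arntl read 0.80, 0.53, -0.21, 0.57 and 0.51 in D0 and -0.41, -1.23, -0.72 and -1.26 in D2, a fall of 1.35 on the log2 scale (limma adjusted p = 0.0257). The call was kept under 9 of the 12 other settings, but when single mice were left out it was kept in 2 of 9 fits, those without D2 mouse 11 or D0 mouse 3. Without D2 mouse 12, 1 of the 4 calls among genes that peak with Dbp remained, and 2 without D0 mouse 1 or D0 mouse 4. The clock hour at which each animal was killed was not used here, so that dose and hour cannot be told apart.

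Some transcripts of vessels rose while the endothelial list as a whole did not. Mmrn2, an extracellular matrix protein of endothelium that binds VEGF, read 5.58, 5.00, 5.02, 4.40 and 5.17 in D0 and 7.03, 7.44, 7.37 and 6.65 in D2, a 4.26-fold rise (limma adjusted p = 3.34e-05). It was the only one of 25 listed endothelial genes to be called, the median was -0.04, and the lineage markers Pecam1, Cdh5, Kdr and Vwf were at 0.47, -0.16, -0.06 and 0.05. Cd34, a surface sialomucin of endothelium and progenitors, read 0.98, 0.82, 0.83, 0.48 and 0.76 in D0 and 1.74, 2.83, 2.42 and 1.84 in D2, a 2.70-fold rise, and its other probe stood at 0.96 (adjusted p = 0.0569). Pkn3 (1.22), the adrenomedullin coreceptor Ramp3 (1.17), Bcl6b (1.05), Nes (0.73) and the nitric oxide synthase Nos3 (0.69) also rose, while Aqp1 and Efnb2, described below, fell. Cd34 and these 7 genes were put together after the values were seen.

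The remaining genes of largest rise had varied roles. Celf5, an RNA-binding protein known mainly from neurons, read -2.24, -2.42, -1.67, -1.68 and -2.06 in D0 and -0.20, 0.31, -0.03 and -0.11 in D2, a 4.02-fold rise. The probe was above background in 1 of the 5 D0 arrays, and 2 other Celf5 probes stood at 0.30 and 0.18. Prss23, a secreted serine protease, rose 2.80-fold, from a range of 0.22 to 0.89 to one of 1.65 to 2.72. Its call was lost without D2 mouse 12. Wfdc12, a small secreted protease inhibitor, rose 2.86-fold, from 0.63 to 1.04 in D0 to 2.01 to 2.89 in D2, and lost its call without D2 mouse 12 or 13 or without D0 mouse 4.

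Only 4 named genes fell, and all stayed below the controls in every D2 mouse. Aqp1, the water channel of lung capillaries, read 3.67, 3.44, 3.56, 3.40 and 3.46 in D0 and 3.20, 2.62, 2.30 and 2.68 in D2, a 1.75-fold decrease (limma adjusted p = 0.0102) that was not called without D2 mouse 12 or 13. The arterial ephrin Efnb2 read 2.91, 2.72, 2.73, 2.27 and 2.66 in D0 and 2.21, 1.89, 1.70 and 1.83 in D2, a 1.68-fold decrease. Its call was kept under 11 of the 12 other settings but in 2 of 9 fits without a single mouse, those without D2 mouse 11 or D0 mouse 4, and its other probe stood at -0.28 (adjusted p = 0.447). The lactate transporter gene Slc5a12 was well above background in 4 of the 5 D0 arrays and in 0 of the 4 D2 arrays, so its fall is given as at least 1.32-fold, the D0 mean against the dimmest signals well above background (limma adjusted p = 0.00635), and its other probe stood at -0.49 (adjusted p = 0.542). Arntl was the other gene.

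Among called probes without a gene name, 15 of those that rose were designed to long noncoding transcripts, named in the design by their mm9 position. At chr1:163508244-163586072, forward strand, 3 of 5 probes rose (by up to 1.28), as did 3 of 3 at chr1:163528200-163528398 inside it. At chr9:14460976-14488051, 3 of 5 rose (by up to 0.79), and at chr17:29183003-29217681, reverse strand, 2 of 5 (by up to 1.11). One region changed the other way, chr10:69669025-69686275, where 1 of 5 probes fell by 0.61 and all 5 differences were negative.

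Lists of the epithelial and immune cells of lung held no call. Medians were -0.05 for 11 genes of type 2 and -0.12 for 8 of type 1 alveolar cells, -0.54 for 7 of club and secretory cells and -0.26 for 15 of ciliated cells. Airway markers had the lowest medians, with Cyp2f2 at -0.54 and Scgb1a1 at -0.29 (adjusted p = 0.664 and 0.869). Lymphocyte, myeloid and MHC class II lists, 16 interferon-stimulated genes (median 0.11), 20 secreted inflammatory factors and 19 matrix genes (median 0.16) likewise held no call. Nor did the lists of Wnt signalling, heat shock, immediate early and glucocorticoid-responsive genes or of lipid synthesis (median -0.15). Markers of other tissues that a section could hold were not called either, in 9 genes of heart muscle (median 0.11), 7 of fat, 6 of thymus, 4 of red blood cells and 7 of squamous epithelium. Zbtb16, a glucocorticoid-responsive factor, was at 1.42 without passing (adjusted p = 0.292).

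No probe separated the middle dose from its neighbours. Between D2 and D1, 0 of 55681 probes were called (0%), with 1771 at an unadjusted p under 0.05, and between D3 and D2, 0 were called (0%), with 1296. Of the 48 named probes called at D2, the unadjusted 95% interval of D2 minus D1 lay above 0 in 22 and below 0 in 3. That of D3 minus D2 included 0 in all 48, where the interval reached a median of 0.32 to either side. The second Cdkn1a probe, called at D2 but outside the 48, had a D3 minus D2 of 0.46 (0.11 to 0.82). The 48 probes were chosen by their change at D2, so these counts do not test a step between doses. The changes from D0 are set side by side here, and all share the D0 mice. For Gdf15 they were 2.74, 3.35 and 3.64 at D1, D2 and D3, and D2 exceeded D1 by 0.61 (0.16 to 1.07) while D3 exceeded D2 by 0.28 (-0.17 to 0.74). For Celf5 they were 1.01, 2.01 and 2.21, with D2 above D1 by 0.99 (0.53 to 1.46). Division genes had similar changes at the 3 doses, 1.34, 1.31 and 1.23 for Mki67, 1.17, 1.23 and 1.17 for Ccna2 and 1.46, 1.62 and 1.55 for Birc5, and the interval of D2 minus D1 for Mki67 was -0.34 to 0.28. Cyp1a1 stood at -1.91, -1.63 and -0.73.

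**Figure D4:**
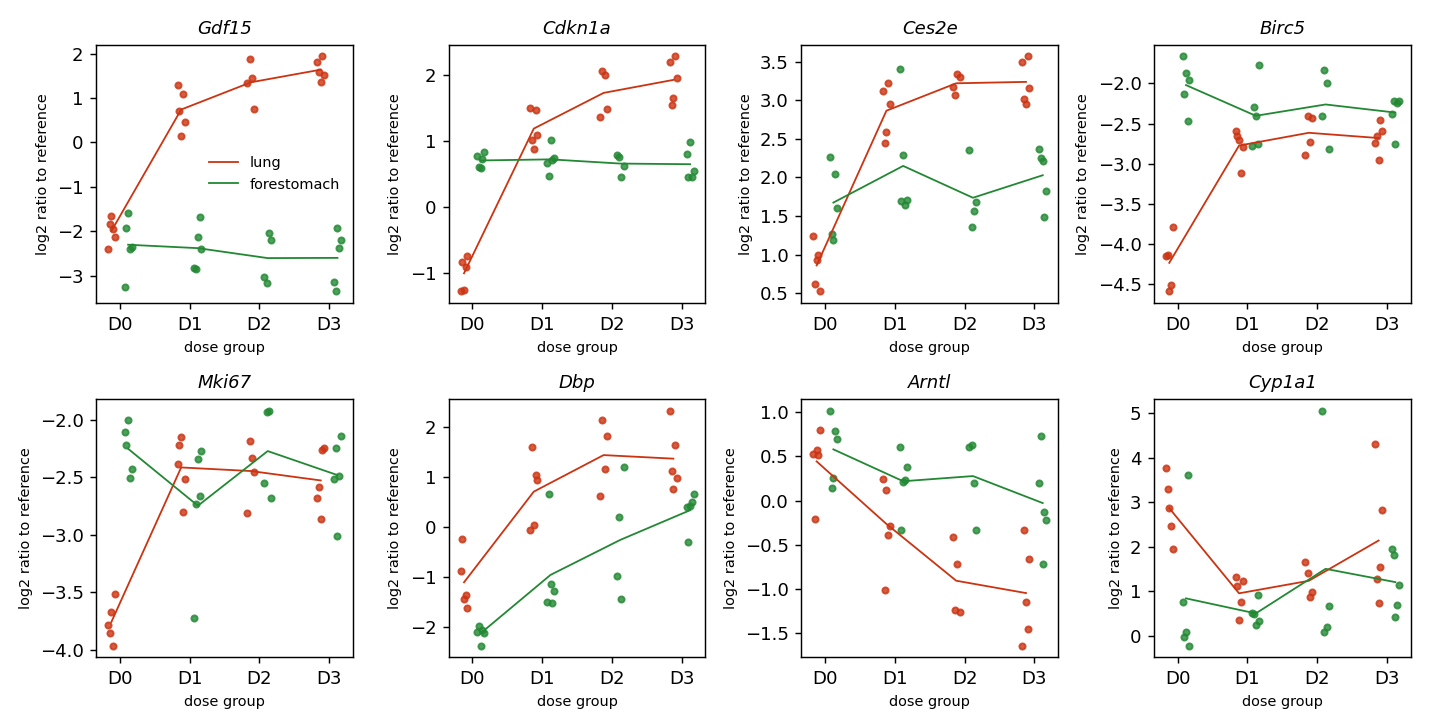
Log2 ratio to the reference in lung (red) and forestomach (green) by dose group for 8 genes, 1 point per array, with lines through the group means. D3 mouse 18 has 2 forestomach arrays. In lung, Gdf15, Cdkn1a, Ces2e, Birc5 and Mki67 leave the control level, while in forestomach the D0 and D2 points of these genes overlap.

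In the forestomach of the same 9 mice, 0 of 55681 probes were called at D2 (0%), with 1824 at an unadjusted p under 0.05 and a lowest limma adjusted p of 0.32. The 141 probes that rose in lung had a median forestomach difference of -0.02, and 68 of them were positive. The difference between both tissues' responses was itself tested, and 12 probes of 8 named genes and 1 noncoding region were called (0.0216%), all of them higher in lung. Cdkn1a read 0.84, 0.77, 0.61, 0.59 and 0.74 in forestomachs of D0 mice 1 to 5 and 0.80, 0.77, 0.47 and 0.63 in D2, and the lung response was larger by 2.78 (2.34 to 3.22, limma adjusted p = 4.783e-06). For Gdf15 the forestomach difference was -0.30 and the lung response larger by 3.65 (2.74 to 4.57, adjusted p = 0.00318). Ces2e, Birc5, Spc25, Ccna2, Aen and Slc2a9 were the other genes, with lung responses larger by 1.27 to 2.30.

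In forestomach, the genes that peak with Dbp had a median difference of 0.45, without a call. Those of the opposite phase had a median of 0.11 there, against -0.24 in lung. Dbp read -2.11, -2.11, -1.97, -2.38 and -2.06 in forestomachs of D0 mice and -0.98, 0.20, -1.44 and 1.20 in D2, without overlap, but neither this difference of 1.87 nor the difference between tissues of 0.68 (-0.60 to 1.96) was called. Forestomach arrays differed in how much glandular stomach they held. The mean log2 ratio of 9 glandular markers was 0.59 to 0.91 in D0 mice 2 and 5 and D2 mouse 15 and 5.56 to 6.90 in the others, and its part in the tissue differences was not tested.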

How the data were processed

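Lung and forestomach RNA was hybridised against Universal Mouse Reference RNA on 2-colour Agilent arrays with no dye swap, tissue always in Cy5. The authors deposited 1 Feature Extraction 10.7.3.1 file per array, holding spot intensity and a log10 ratio, and 1 table of log2 ratios normalized by LOWESS without background subtraction. Here median intensities of the deposited files were normalized by loess within each array without background correction. Against these values, the authors' log2 table had slopes of 0.995 to 0.998 on the lung arrays. Control spots (62976 spots, 59305 after removal) and outlier spots were left out and spots of a probe averaged, giving 55681 probes. Of these, 26413 were named for 20018 genes through RefSeq accessions (GRCm38.p6), and non-matching probes stayed unnamed. Missing values after removal of outliers numbered 111 on the 9 arrays.

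Limma 3.58.1 (R 4.3.3) fitted 1 mean per dose group over all 19 lung arrays, and the tissue difference over the 18 D0 and D2 arrays of both tissues. The MAANOVA test of the study's methods was not run. Calls needed a Benjamini-Hochberg adjusted p of at most 0.05 within a contrast and a 1.5-fold change. Samples of a group were separate mice, and the number of arrays limits the precision. Same-numbered lung and forestomach arrays came from the same mouse by the titles, so the tissue difference was also fitted with the mouse as a block. The script was tested on simulated data.

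The gene lists and the rule for named genes were chosen with earlier results of these data known. The rule took the 15 genes of largest rise and up to 10 of largest fall among called probes, all called list members or the member of lowest adjusted p in a list with none, Cyp1a1 and Cyp1b1, and the 5 largest changes of the other contrasts. A gene stands in its list by its brightest probe. The slide, the scan day, background correction, scaling, dim-probe filters, weights and single mice were varied as alternatives. Results for some listed genes are not reported here.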

Additional observations from a re-analysis of the deposited data

Results flagged for a closer look

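In 4 of 146 groups of values tested, 1 mouse lay far from the rest of its group, and chance alone flags about 1 group in 20. In D2 mouse 11, Spc25 read -2.40 against -1.83 in the next mouse, Cenpe read -3.45 against -2.87, and Gstp1 read -0.88 against -0.83 in the next mouse. In D0 mouse 3, Arntl read -0.21 against 0.51 in the next mouse.

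The D2 response differed between lung and forestomach by limma's test of the difference in 12 probes, all higher in lung. The differences were 3.65 for Gdf15, 2.78 and 2.35 for both Cdkn1a probes, 2.30 for Ces2e, 1.86 for Birc5, 1.69 for Spc25, 1.55 for Ccna2, 1.38 for each of 2 Aen probes and 1.27 for Slc2a9. They were 1.31 and 1.16 for 2 noncoding probes of the chromosome 1 region.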

How the results depend on the processing

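The D2 against D0 count of 147 was 225 with the scanner software's log ratios (215 higher, 10 lower), 5 under median centring (4 and 1), 242 with the slide as a block (222 and 20), and with the scan day as a block 16 probes were called lower. Leaving out single mice gave 93 to 203 calls, 91 to 182 higher and 2 to 21 lower, the lower ends without D2 mouse 12 and the upper ends without D2 mouse 11. The cause was not tested. Counts between neighbouring doses were 0 under every alternative. For the tissue difference, the replicate block that pairs both tissues of a mouse gave 7 calls as a fixed term and 26 as a random one, against 12 without it. Median centring gave 1, array weights 21 and all doses 34, and leaving out single arrays gave 8 to 21. Of 1529 alternative values of named probes, 12 reversed. Under median centring these were Ahr at 0.24, Gstp1 at 0.27, Hopx at 0.20, Cyp2f2 at 0.033, Cd79b at 0.0064, Lck at 0.14, Csf3r at 0.33, Hba-a1 at 0.21, Krt14 at 0.014 and Acaca at 0.17. Ryr2 ranged from -0.044 to 0.25 as single mice were left out, below 0 without D2 mouse 11, and Lep at 0.076 with the scanner software's log ratios. Of 48 named called probes, 33 kept their call whichever mouse was left out and 36 under every other alternative but median centring, under which 3 kept it. Probes near background in D0, such as those of Ckap2 and Celf5 and the second Cdkn1a probe, have the least certain change.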
